A study of Homo sapiens with 5 samples.

Results

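Involucrin, the small proline-rich (SPRR) proteins and the filaggrins are structural proteins of the outermost living layers of the epidermis, and their transcripts were followed in HaCaT keratinocytes with AHNAK knockdown. The 9 genes IVL, SPRR1A, SPRR1B, SPRR2A, SPRR2D, SPRR2E, SPRR3, FLG and FLG2 were taken by symbol from a table of 27933 genes, and all 9 had a row. HaCaT is an established, spontaneously immortalised human keratinocyte line that can still start epidermal differentiation. Total RNA of 3 libraries labelled AHNAK knockdown was compared with 2 libraries labelled control. All 5 came from HaCaT cells grown in DMEM with fetal bovine serum. The sample labels call the cells a knockdown while the design text calls them a knockout, and the sources used here give neither the knockdown reagent nor the time after it. They also leave out whether replicates came from separate cultures, so the p-values capture only the spread between these libraries, which may be technical. AHNAK encodes a giant scaffold protein beneath the plasma membrane, and the study's title links it to keratinocyte proliferation and differentiation.

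When a keratinocyte leaves the basal layer it makes, in turn, involucrin, SPRR proteins and filaggrin, and transglutaminases crosslink many of these proteins into a cornified envelope beneath the plasma membrane. Involucrin is a glutamine-rich rod laid down early as a scaffold, and SPRR proteins form short bridges between other envelope proteins. Filaggrin is made as a large precursor stored in keratohyalin granules, and its freed units bundle keratin filaments and later yield the moisture-holding amino acids of the skin surface. The genes lie together in the epidermal differentiation complex of chromosome 1q21, and AP-1 transcription factors are known regulators of several of them.

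Values are FPKM, fragments per kilobase of transcript scaled to each library's mapped fragments, and the absolute depth is unknown. FPKM sums ranged from 374215 to 420541 and 12087 to 12311 genes per library reached 1 FPKM. AHNAK itself stood at 113.9, 69.6 and 115.3 FPKM in knockdown replicates 1, 2 and 3, against 204.8 and 242.0 FPKM in control replicates 1 and 2, so the 3 knockdown libraries lay below both controls, with a log2 difference of -1.19 (SE 0.24) that missed the threshold of 0.05 (limma, p adjusted by Benjamini-Hochberg over all genes tested: adjusted p = 0.372). Low values fell on steps shared by knockdown replicates 1 and 3 and control replicate 1 (set A), and on other steps shared by knockdown replicate 2 and control replicate 2 (set B). No label describes the sets, and differences are also given within each. The keratinocyte markers KRT14, KRT5, SFN and TP63 were present, KRT14 averaging 2101 FPKM over the 5 libraries. Summed levels of 6 fibroblast markers were 6.11 to 10.2 FPKM in knockdown and 3.30 to 5.00 FPKM in controls, and of 5 leukocyte markers 21.2 to 28.7 FPKM and 16.1 to 18.3 FPKM, nearly all of it CD68. Those of 5 melanocyte markers were 1.44 to 2.09 FPKM in knockdown and 1.93 to 2.09 FPKM in controls, with TYR at 0 in every library, and of 3 endothelial markers 2.06 to 2.98 FPKM and 2.08 to 2.97 FPKM. Among the leukocyte markers PTPRC and CD3E were at 0 in 4 of the 5 libraries. The part of other cell types in the results below was not tested.

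The proximal promoters are shown first because the genes share a regulatory motif there. RefSeq windows (GRCh38.p14) covering the 250 bases before the transcription start were found for 7 of the 9 genes, without SPRR2D and SPRR2E. The AP-1 motif TGANTCA, searched on both strands, was present in 7 of these 7 windows, while 6.57% of 35116 windows of the same length held it. Its form TGAGTCA, which is a part of the TGANTCA matches, was in 5 of the 7, against 4.20% of all windows, and the TATA-box letters TATAAA were in 5 of the 7, against 10.7%. A match is a description of the letters and no test of binding. The windows of the 4 genes with the highest levels are printed 5′ to 3′ on the gene's own strand, with TGANTCA and TATAAA matches in capitals: IVL (plus strand, chr1:152908296-152908545), SPRR1A (plus strand, chr1:152983831-152984080), SPRR1B (plus strand, chr1:153030953-153031202) and FLG (minus strand, chr1:152325240-152325489).
IVL: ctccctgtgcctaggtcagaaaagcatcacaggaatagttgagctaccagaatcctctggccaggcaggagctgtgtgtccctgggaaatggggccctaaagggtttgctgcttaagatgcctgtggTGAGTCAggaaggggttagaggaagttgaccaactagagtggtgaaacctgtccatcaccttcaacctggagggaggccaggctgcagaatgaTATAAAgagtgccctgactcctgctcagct
SPRR1A: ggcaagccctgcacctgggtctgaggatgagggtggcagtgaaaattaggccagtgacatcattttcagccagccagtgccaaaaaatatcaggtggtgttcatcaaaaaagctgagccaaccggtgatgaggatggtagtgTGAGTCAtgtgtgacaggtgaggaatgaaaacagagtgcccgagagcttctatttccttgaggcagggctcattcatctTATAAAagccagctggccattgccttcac
SPRR1B: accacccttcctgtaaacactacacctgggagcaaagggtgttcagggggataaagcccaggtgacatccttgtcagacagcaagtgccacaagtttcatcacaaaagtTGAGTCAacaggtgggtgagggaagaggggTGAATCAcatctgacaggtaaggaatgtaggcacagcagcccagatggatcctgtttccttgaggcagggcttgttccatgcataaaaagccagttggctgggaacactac
FLG: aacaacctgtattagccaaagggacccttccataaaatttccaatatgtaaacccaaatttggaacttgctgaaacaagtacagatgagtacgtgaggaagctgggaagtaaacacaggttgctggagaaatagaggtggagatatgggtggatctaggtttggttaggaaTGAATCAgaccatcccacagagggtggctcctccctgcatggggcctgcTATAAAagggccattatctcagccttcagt
Counted from the transcription start, the AP-1 motif began at position -123 in IVL, -108 in SPRR1A, -141 and -111 in SPRR1B, and -79 in FLG. In the windows not printed it began at -197 in SPRR2A, -170 in SPRR3 and -64 in FLG2. The 5 genes with the TGAGTCA form were IVL and the 4 SPRR genes, while FLG and FLG2 had TGAATCA, and SPRR1B had both forms.

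**Figure D1:**
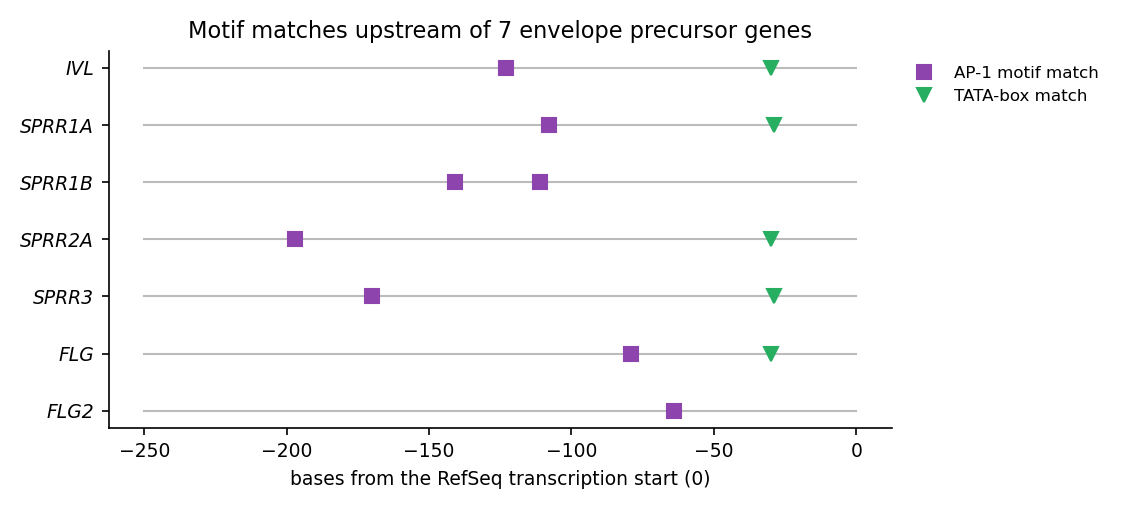
Positions of AP-1 motif and TATA-box matches in the 250 bases before the RefSeq transcription start of 7 genes, in bases from the start. Each gene has an AP-1 motif match between -197 and -64, SPRR1B has a pair of them, and SPRR1B and FLG2 have no TATA-box match in the window.

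Involucrin transcripts stood higher in every knockdown library than in either control. IVL (ENSG00000163207.6, chromosome 1, 152908545 to 152911886, plus strand, GRCh38, 2 exons) stood at 43.4, 69.4 and 43.6 FPKM in knockdown replicates 1, 2 and 3, against 31.5 and 24.8 FPKM in control replicates 1 and 2. The groups did not overlap, and the highest and the lowest library both belonged to set B. The means were 52.1 ± 14.9 FPKM (SD, n = 3) in knockdown and 28.1 ± 4.75 FPKM (SD, n = 2) in controls, or 1.85 times as much. Each log2 difference subtracts the control mean of log2(FPKM + 0.5) from the knockdown mean, a scale that understates the change of low genes. For IVL it came to 0.85 (SE 0.24, 95% confidence interval 0.28 to 1.42) without passing over all genes (limma, adjusted p = 0.387, unadjusted p = 0.00979). Set A alone gave 0.46 and set B 1.47. It passed with limma array weights (1.19, adjusted p = 0.0359), a fit that gave knockdown replicate 2 a weight of 3.98 and knockdown replicate 3 one of 0.257 and called 1428 genes in all.

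Much of the IVL coding sequence is a tandem repeat of 30 bases that encodes the glutamine-rich rod. Over the 1758 coding bases of the GENCODE 29 transcript, 63.9% of bases were the same as the base 30 positions earlier. Coding bases 529 to 618 are printed to show this, with capitals for bases equal to the base 30 positions before.
IVL: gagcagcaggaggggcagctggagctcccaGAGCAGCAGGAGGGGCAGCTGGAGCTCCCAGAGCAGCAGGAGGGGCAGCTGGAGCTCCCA
In this stretch the 30-base unit occurs 3 times without a difference. Short reads from such a stretch can align at several places within IVL.

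**Figure D2:**
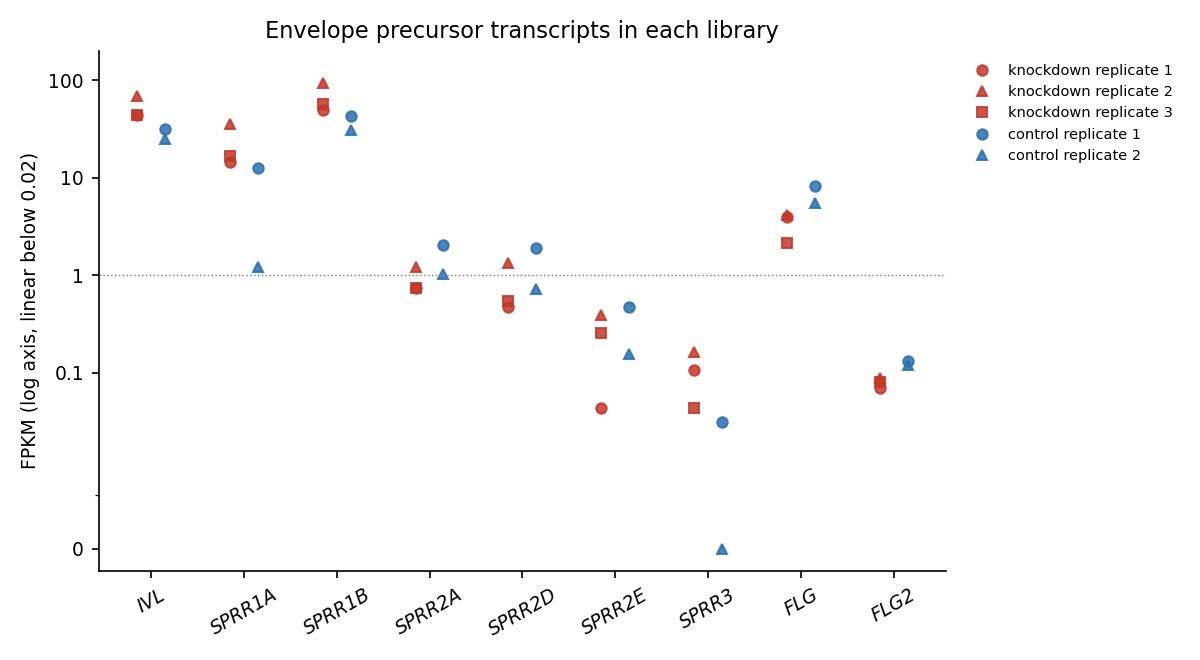
FPKM of the 9 genes in each library on a log axis that is linear below 0.02, knockdown in red left of control in blue, with a dotted line at 1 FPKM. IVL, SPRR1A and SPRR1B lie higher in all 3 knockdown libraries, FLG and FLG2 lie lower, and 5 genes stay near or below 1 FPKM.

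SPRR1B, a cross-bridging envelope precursor and the most abundant of the 9 in both groups, was likewise higher in every knockdown library. It stood at 49.1, 92.9 and 57.2 FPKM in knockdown replicates 1, 2 and 3, against 43.3 and 31.0 FPKM in control replicates 1 and 2. The groups did not overlap, though knockdown replicate 1 lay only slightly above control replicate 1. The means were 66.4 ± 23.3 FPKM (SD, n = 3) in knockdown and 37.1 ± 8.66 FPKM (SD, n = 2) in controls. The log2 difference of 0.79 (SE 0.29, 95% confidence interval 0.10 to 1.48) did not pass (limma, adjusted p = 0.395). Set A alone gave 0.29 and set B 1.57, and without knockdown replicate 2 it was 0.53. It passed with array weights (1.19, adjusted p = 0.0396).

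SPRR1A, the closest relative of SPRR1B, was set apart by 1 control library. It stood at 14.5, 35.2 and 16.5 FPKM in knockdown replicates 1, 2 and 3, against 12.4 and 1.20 FPKM in control replicates 1 and 2. The groups did not overlap, but control replicate 1 lay near knockdown replicates 1 and 3, and control replicate 2 stood far below the rest. The means were 22.0 ± 11.4 FPKM (SD, n = 3) in knockdown and 6.80 ± 7.92 FPKM (SD, n = 2) in controls. The log2 difference of 2.16 (SE 0.81, 95% confidence interval 0.23 to 4.08) did not pass (limma, adjusted p = 0.406). Without control replicate 2 it was 0.69 (adjusted p = 0.973), and without control replicate 1 it was 3.62 and passed (adjusted p = 0.0164). Set A gave 0.30 and set B 4.39. Of the 6 fibroblast markers, DCN, LUM and COL3A1 were likewise highest in knockdown replicate 2 and lowest in control replicate 2, DCN at 1.83, 5.25 and 2.25 FPKM in knockdown replicates 1, 2 and 3, against 1.37 and 0 FPKM in control replicates 1 and 2. COL1A1 had the opposite order, at 1.78, 1.28 and 1.59 FPKM in knockdown replicates 1, 2 and 3, against 1.94 and 2.47 FPKM in control replicates 1 and 2, and COL1A2 and PDGFRA were at 0 in both controls. The part of these markers in the SPRR1A values was not tested.

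Within set A the values could also be set side by side as relative reads. The most frequent ratio of low values was taken as the worth of 1 read, and it was higher than in control replicate 1 by 0.29 in knockdown replicate 1 and by 0.49 in knockdown replicate 3 (log2). The log2 FPKM ratios over control replicate 1 were 0.22 and 0.41 for SPRR1A, 0.18 and 0.40 for SPRR1B and 0.46 and 0.47 for IVL. Expressed as reads, with no scaling for the library totals, SPRR1A in knockdown replicates 1 and 3 was then 0.953 and 0.946 times control replicate 1, SPRR1B 0.927 and 0.941 times, and IVL 1.13 and 0.986 times. Both ratios lay within 0.1 of the worth of 1 read for 2.28% of 12165 genes, SPRR1A among them but not SPRR1B or IVL, while the median log2 FPKM ratio over all 12165 genes was -0.01 in each library.

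SPRR1A and SPRR1B are near-identical in coding sequence, so the division of coding reads between them is uncertain. Their coding sequences have 270 bases each, of which 260 (96.3%) are the same, with an identical run of 74 bases. The first 120 coding bases (GENCODE 29, GRCh38) are printed with capitals where they differ.
SPRR1A: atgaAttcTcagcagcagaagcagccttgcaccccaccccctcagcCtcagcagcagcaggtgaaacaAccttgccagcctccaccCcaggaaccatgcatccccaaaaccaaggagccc
SPRR1B: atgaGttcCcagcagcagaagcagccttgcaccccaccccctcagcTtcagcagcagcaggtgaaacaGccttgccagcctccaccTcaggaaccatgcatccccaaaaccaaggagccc
This stretch holds 5 differences. The GENCODE 29 model of SPRR1A (ENSG00000169474.4, chromosome 1, 152985231 to 152985500, plus strand) is a single exon of 270 bases that holds only coding sequence, while SPRR1B (ENSG00000169469.8, chromosome 1, 153031202 to 153032900, plus strand) has 2 exons and a transcript of 620 bases. The RefSeq promoter window of SPRR1A ends at 152984080, upstream of the GENCODE 29 start at 152985231, so RefSeq and GENCODE 29 place its start differently. FPKM divides by transcript length and the authors' annotation is not given in the sources used here, so the level of SPRR1A relative to SPRR1B depends on the model used. Summed over both genes, the FPKM values were 63.5, 128.1 and 73.6 in knockdown replicates 1, 2 and 3, against 55.7 and 32.2 in control replicates 1 and 2, which do not overlap.

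**Figure D3:**
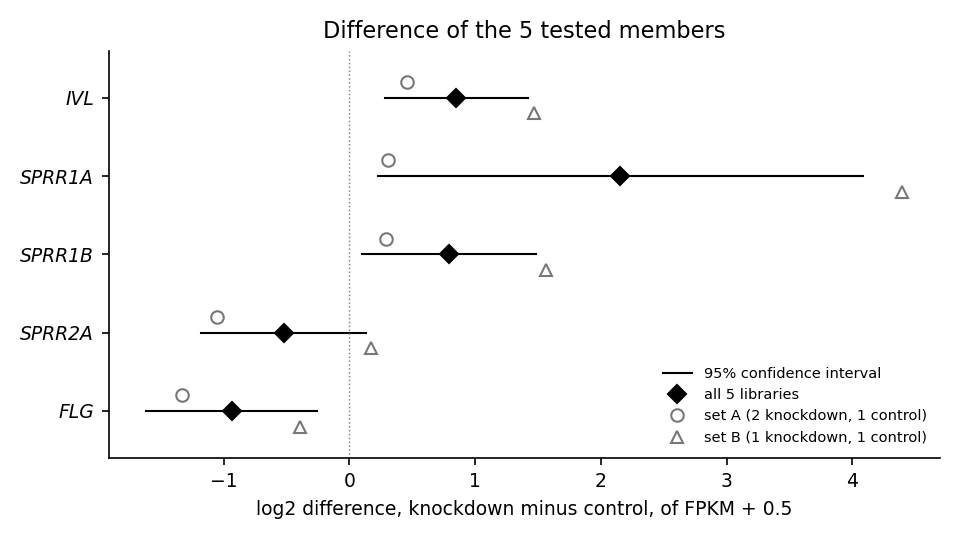
Log2 difference, knockdown minus control, of FPKM + 0.5 for the 5 tested genes. Diamonds with bars are the estimate and 95% confidence interval over all 5 libraries, and open symbols the difference within set A (2 knockdown, 1 control) and set B (1 knockdown, 1 control). The differences of IVL, SPRR1A and SPRR1B are above 0 in both sets and that of FLG is below 0 in both, while SPRR2A lies on opposite sides.

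The SPRR2 genes, whose proteins are shorter bridges of the same kind, were near the lower limit of what was tested and did not separate the groups. SPRR2A (chromosome 1, 153056113 to 153057537, minus strand) stood at 0.729, 1.22 and 0.733 FPKM in knockdown replicates 1, 2 and 3, against 2.06 and 1.03 FPKM in control replicates 1 and 2. The groups overlapped, with control replicate 1 highest. Its mean of 1.15 FPKM passed the filter of 1 FPKM through the control libraries, the knockdown mean being 0.894. The log2 difference of -0.52 (SE 0.27, 95% confidence interval -1.18 to 0.13) did not pass (limma, adjusted p = 0.50). Set A alone gave -1.05 and set B 0.17, and without control replicate 2 it was -0.89. SPRR2D, with a mean of 0.996 FPKM, lay just outside the filter and was not tested. It stood at 0.468, 1.34 and 0.537 FPKM in knockdown replicates 1, 2 and 3, against 1.91 and 0.722 FPKM in control replicates 1 and 2, the same order of libraries within each set as for SPRR2A. Within set A the SPRR2D log2 FPKM ratios over control replicate 1 were -2.03 and -1.83 in knockdown replicates 1 and 3. With no scaling for the library totals, both correspond to 0.200 times the reads of control replicate 1. SPRR2E was at 0.0434, 0.390 and 0.256 FPKM in knockdown replicates 1, 2 and 3, against 0.475 and 0.156 FPKM in control replicates 1 and 2, and overlapped too. The coding sequences of these 3 genes have 219 bases each and share 97.7% to 98.6% of them, so coding reads cannot be divided with confidence. The transcripts of SPRR2A, SPRR2D and SPRR2E have 709, 682 and 678 bases, and their non-coding parts were not compared. The sum of the 3 was 1.24, 2.95 and 1.53 FPKM in knockdown replicates 1, 2 and 3, against 4.44 and 1.90 FPKM in control replicates 1 and 2, which overlap. SPRR3, known as an abundant SPRR of oral and oesophageal epithelium, was barely detected, at 0.105, 0.161 and 0.0435 FPKM in knockdown replicates 1, 2 and 3, against 0.0310 FPKM in control replicate 1 and a listed 0 in control replicate 2. In set A the values of knockdown replicates 1 and 3 correspond to 2.77 and 1.00 times the reads of control replicate 1, with no scaling for the library totals. SPRR3 was not tested.

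Filaggrin transcripts went the other way and were lower in every knockdown library. FLG (ENSG00000143631.10, chromosome 1, 152302175 to 152325203, minus strand, GRCh38, 3 exons) stood at 3.93, 4.12 and 2.14 FPKM in knockdown replicates 1, 2 and 3, against 8.10 and 5.55 FPKM in control replicates 1 and 2. The groups did not overlap, and knockdown replicate 3 was lowest. The means were 3.39 ± 1.09 FPKM (SD, n = 3) in knockdown and 6.82 ± 1.81 FPKM (SD, n = 2) in controls, or 0.497 times as much. The log2 difference of -0.93 (SE 0.29, 95% confidence interval -1.61 to -0.25) did not pass (limma, adjusted p = 0.387, unadjusted p = 0.0144). Set A alone gave -1.33 and set B -0.39. In set A the log2 FPKM ratios over control replicate 1 were -1.04 and -1.92 in knockdown replicates 1 and 3. With no scaling for the library totals, these correspond to 0.396 and 0.188 times the reads of control replicate 1. With array weights the log2 difference was -0.69 and also did not pass (limma, adjusted p = 0.0590). FLG2, the filaggrin-2 gene, was near 0, at 0.0689, 0.0882 and 0.0790 FPKM in knockdown replicates 1, 2 and 3, against 0.133 and 0.121 FPKM in control replicates 1 and 2. These groups did not overlap either, but FLG2 was not tested at this level.

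The FLG coding sequence is 12186 bases long and is built of near-identical filaggrin units. At a spacing of 972 bases, 73.1% of its bases were the same, so reads can align to several units of this gene. FLG and FLG2 are both overlapped on the opposite strand by the antisense gene FLG-AS1, and whether counting used strand is not given in the sources used here. FLG-AS1 was at 0.667, 0.441 and 1.20 FPKM in knockdown replicates 1, 2 and 3, against 0.480 and 1.09 FPKM in control replicates 1 and 2. Its groups overlapped and it stood highest in knockdown replicate 3, where FLG was lowest. For FLG2, FLG-AS1 had the higher FPKM in every library.

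Of the 9 genes, 5 averaged 1 FPKM or more over the libraries and were tested, and 0 of the 5 passed in limma at an adjusted p of 0.05, as did 0% of the 12196 genes tested (smallest adjusted p = 0.0570). At an unadjusted p under 0.05 there were 4 of the 5 (IVL, SPRR1A and SPRR1B higher, FLG lower), beside 11.7% of all tested genes, of which 6.22% were higher and 5.48% lower. That background of 1427 genes became 563 without control replicate 2, 679 without control replicate 1 and 738 without knockdown replicate 2, and 4285 with array weights. The groups did not overlap for 4 of the 5 tested genes, beside 32.0% of all tested genes. Of these, IVL, SPRR1A and SPRR1B were higher, beside 16.2% of all tested genes, and FLG was lower, beside 15.8%. Among all 9 genes this held for 6, adding SPRR3 (higher) and FLG2 (lower). Both lay under the filter, so the 32.0% of tested genes is no background for them. For SPRR3, knockdown replicates 1 and 3 correspond to 2.77 and 1.00 times the unscaled reads of control replicate 1. The median log2 difference over the 5 was 0.79, beside 0.01 over all tested genes. This median is the value of SPRR1B, and the members pointed in both directions.

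Ratios within a library do not depend on how that library was scaled. IVL over SPRR1B was 0.884, 0.747 and 0.763 in knockdown replicates 1, 2 and 3, against 0.728 and 0.799 in control replicates 1 and 2. It kept within a narrow range in all 5 libraries, and the groups overlapped. SPRR1A over SPRR1B was 0.295, 0.379 and 0.288 in knockdown replicates 1, 2 and 3, against 0.287 and 0.0386 in control replicates 1 and 2, so control replicate 2 stood alone. IVL over FLG was 11.05, 16.9 and 20.4 in knockdown replicates 1, 2 and 3, against 3.89 and 4.47 in control replicates 1 and 2. All 3 knockdown libraries lay above both controls for this ratio, which follows from IVL being higher and FLG lower in each of them. The 2 controls, 1 from each set, were close to each other. This ratio was chosen after the values had been seen and was not tested.

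**Figure D4:**
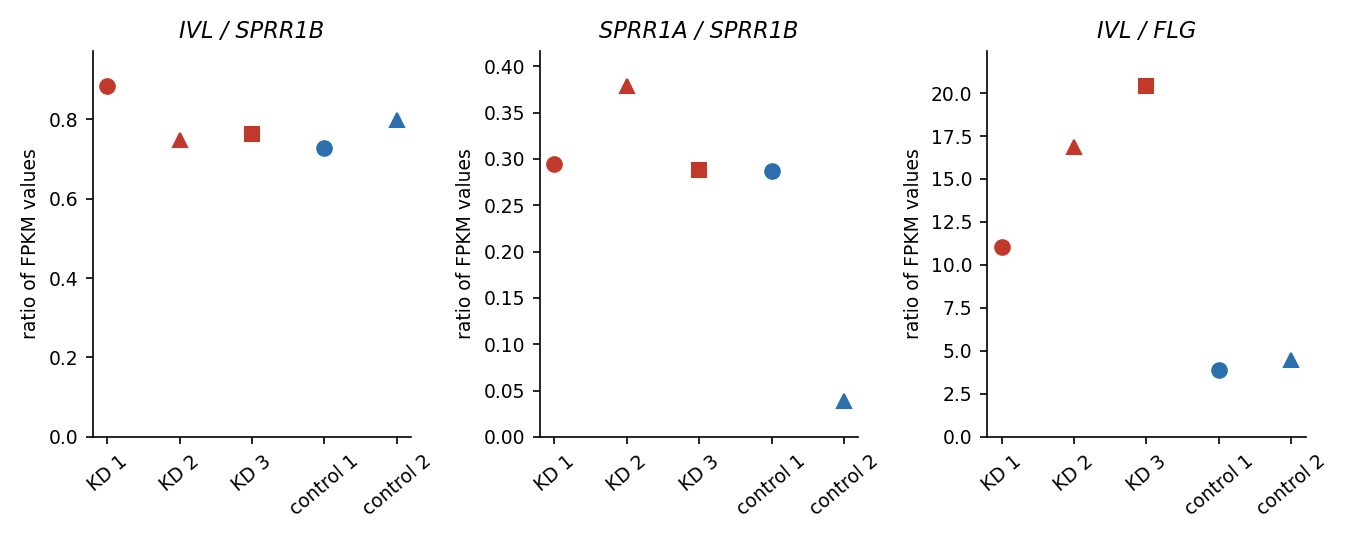
Ratios of FPKM values within each library for IVL over SPRR1B, SPRR1A over SPRR1B and IVL over FLG, on linear axes from 0, with the 3 knockdown libraries (KD) in red left of the 2 controls in blue. IVL over SPRR1B is 0.728 to 0.884 throughout, control replicate 2 stands apart at 0.0386 for SPRR1A over SPRR1B, and IVL over FLG is 11.05 to 20.4 in knockdown and 3.89 to 4.47 in controls.

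The order of the levels was headed by SPRR1B and IVL in both groups, whose ranges overlapped each other in knockdown and did so slightly in controls. SPRR1A came next in knockdown and did not overlap with IVL or FLG there. In controls FLG and SPRR1A had nearly the same mean, 6.82 and 6.80 FPKM, and SPRR1A spanned the FLG range. SPRR2A, SPRR2D and SPRR2E followed in both groups, with overlapping ranges for SPRR2A and SPRR2D, and SPRR3 and FLG2 were lowest. The level of IVL was above that of 93.5%, 96.5% and 93.5% of the genes in the table in knockdown replicates 1, 2 and 3, and of 90.9% and 88.6% in control replicates 1 and 2.

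Most of the surrounding complex was silent or nearly so in these cells. Of 18 late cornified envelope (LCE) genes, which encode late envelope proteins, 12 were at 0 in every library and the highest mean was 0.165 FPKM. None of the 5 other SPRR genes in the table was tested (highest mean 0.610 FPKM), nor was any of 5 other genes of the filaggrin type, such as HRNR (hornerin) and TCHH (trichohyalin), with a highest mean of 0.746 FPKM. LOR, the gene of loricrin, the main late envelope protein, was at 0, 0.260 and 0 FPKM in knockdown replicates 1, 2 and 3, against 0 and 0.0605 FPKM in control replicates 1 and 2. The peptidoglycan recognition genes PGLYRP4 and PGLYRP3 were the only 2 tested of 9 remaining genes, with log2 differences of 1.05 (SE 0.34) and 0.16 (SE 0.18). Among the 14 tested S100 genes of the complex 8 had a positive and 6 a negative difference (median 0.15). S100A7 and S100A9, inflammatory calcium-binding proteins, had the smallest p, with differences of 1.22 (SE 0.18) and 0.99 (SE 0.17). The limma adjusted p was 0.393 for PGLYRP4 and 0.372 for both S100 genes, and 0 genes of the complex passed. At an unadjusted p under 0.05 there were 5 higher and 1 lower of the 14 S100 genes, beside 6.22% higher and 5.48% lower of all tested genes.

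**Figure D5:**
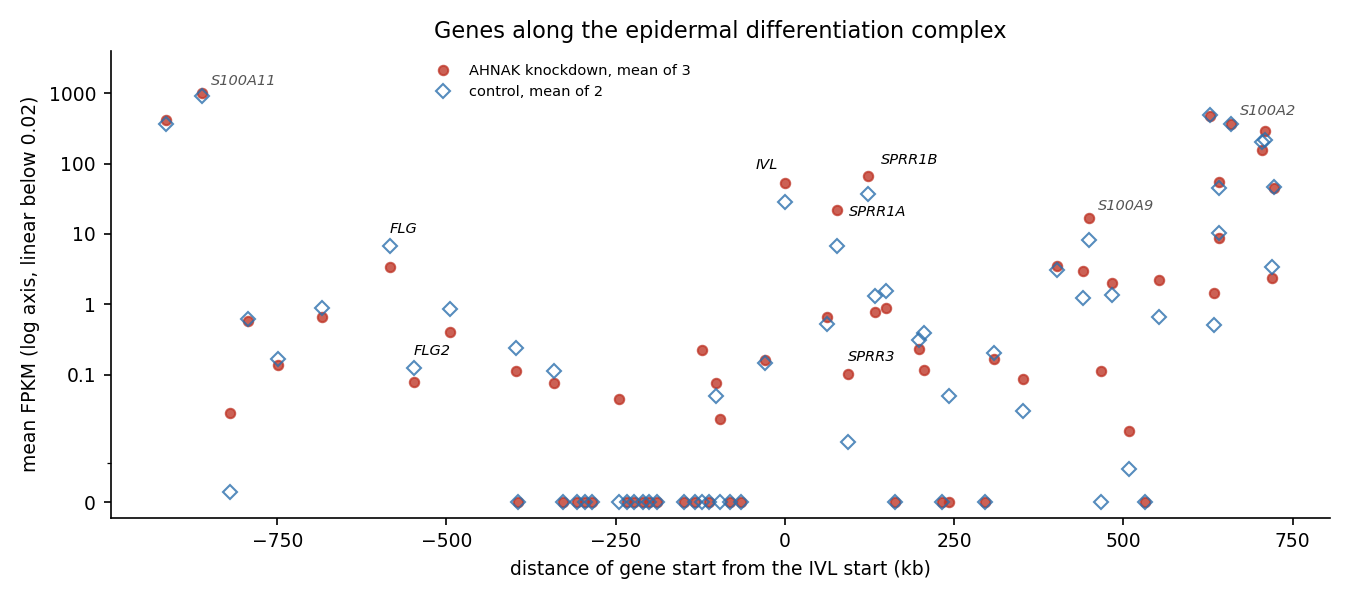
Mean FPKM of each gene of the epidermal differentiation complex against the distance of its start from the IVL start in kb, on a log axis that is linear below 0.02, with knockdown (mean of 3, filled circles) and control (mean of 2, open diamonds). Apart from IVL, SPRR1A, SPRR1B and FLG, the levels above 5 FPKM in this map belong to S100 genes at both ends, and LCE genes lie at or near 0.

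Genes that crosslink, process or regulate the envelope precursors did not pass either. Of 8 tested crosslinking enzymes and other precursors 6 had a negative difference (median -0.17), with PI3, the elafin gene, at -0.44 (SE 0.13) and TGM1, the main envelope transglutaminase of keratinocytes, at -0.50 (SE 0.18). Both were lower in 3 of 3 knockdown libraries than in either control. Of 8 tested genes of filaggrin processing 6 had a positive difference (median 0.05), with the 2 of smallest p, PADI3, a peptidylarginine deiminase, at 0.33 (SE 0.17) and BLMH, bleomycin hydrolase, at 0.18 (SE 0.14). Of 14 tested transcription factors known to act on envelope genes 11 had a negative difference (median -0.28), GRHL3 at -0.48 (SE 0.14) among them. ELF3, an epithelial ETS factor, was positive at 0.67 (SE 0.17) and stood at 135.3, 172.0 and 125.1 FPKM in knockdown replicates 1, 2 and 3, against 91.9 and 86.9 FPKM in control replicates 1 and 2. Over all tested genes 51.3% had a positive difference. Of 6 spinous markers 2 were tested, the keratins KRT10 and KRT1, which mark the layer where involucrin starts. They differed by 0.25 and 0.18. Of 6 tested basal markers 4 had a negative difference (median -0.26). The basal keratins KRT15 and KRT14 differed by 0.53 and -0.70, KRT14 by -0.26 in set A and -1.38 in set B. In these lists 0 genes passed in limma (adjusted p of at least 0.379). At an unadjusted p under 0.05 there were 3 lower among the crosslinking genes, and 2 higher and 1 lower among the transcription factors. Among the 6 basal markers there was 1 each way. The shares of all tested genes at that threshold were 6.22% higher and 5.48% lower.

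The genes whose profiles over the 5 libraries were most like each member were found by the root mean square distance between log2 profiles centred on their own mean, among 8676 or 8677 genes of at least 5 FPKM. For IVL they were BMP3 (distance 0.057), IFITM1 (0.059) and SAMD9L (0.066), and SPRR1B ranked 14th at 0.098. For SPRR1B they were RSAD2 (0.052), BMP3 (0.060) and SAMD9L (0.061), with IVL 9th. IFITM1, SAMD9L and RSAD2 are interferon-stimulated genes, and BMP3 encodes a bone morphogenetic protein. BMP3 stood at 7.84, 13.4 and 8.30 FPKM in knockdown replicates 1, 2 and 3, against 6.27 and 4.31 FPKM in control replicates 1 and 2, the same order of libraries as for SPRR1B. For SPRR1A they were GPNMB (0.147), LINC00892 (0.249) and ALDH3B2 (0.291). All 3 were lowest in control replicate 2, GPNMB at 54.6, 122.8 and 62.2 FPKM in the knockdown libraries, against 42.8 and 7.13 FPKM in control replicates 1 and 2. For FLG they were FN1, the fibronectin gene (0.040), SLC2A6 (0.077) and SNORD26 (0.112), and for SPRR2A FLI1 (0.042), SNORA48 (0.084) and IL6ST (0.104). FN1 stood at 4.69, 4.55 and 2.45 FPKM in knockdown replicates 1, 2 and 3, against 9.08 and 6.04 FPKM in control replicates 1 and 2. SPRR2A was nearer to FLG (0.32) than to IVL (0.69), SPRR1B (0.66) or SPRR1A (1.5). The profiles were taken of log2(FPKM + 0.5). With a mean of 1.15 FPKM, SPRR2A is narrowed more by the added 0.5 than genes of at least 5 FPKM, so its distances depend on that setting.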

How the data were processed

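RNA of 5 HaCaT libraries was sequenced, and the authors deposited 1 table of FPKM values, with genes in rows and libraries in columns. Per the submitters' processing notes, HISAT2 2.0.1 and StringTie 2.0.6 were used, and the builds GRCh38 and mm9 are named without a role. Annotation, filters and strand setting: not given in the sources used here. Groups were taken from the sample titles. All tests were run on the whole table: log2(FPKM + 0.5) of the 12196 genes averaging 1 FPKM or more was fitted with limma 3.58.1 in R 4.3.3 (lmFit, eBayes with trend), without covariates. Two-sided p-values were adjusted by Benjamini-Hochberg over all tested genes, with a threshold of 0.05. An exact permutation test of 3 against 2 libraries cannot go below 0.1. FPKM is not a count, so no count test was run, and the fit was tested on simulated data. Library sets were found from the most frequent ratio of values under 0.3 FPKM, which held for 20.1% to 25.1% of low genes between libraries of set A, 17.0% within set B and at most 3.96% between sets. Gene models came from GENCODE 29 (GRCh38) by symbol, and promoters from RefSeq (GRCh38.p14). Named genes were the 9 members, AHNAK, for each other list its 2 smallest p-values and the 3 nearest profiles of each tested member; DCN, LUM, LOR, FLG-AS1 and other genes given with values were chosen after values were seen. The members and lists were chosen with earlier results of these data known.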

Additional observations from a re-analysis of the deposited data

How the results depend on the processing

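Over 17 alternative fits IVL (0.63 to 1.19), SPRR1A (0.69 to 3.62) and SPRR1B (0.53 to 1.19) stayed positive, as did FLG negative in 16 (-1.19 to -0.67) and SPRR2A in 15 (-0.89 to -0.28), the other fits leaving these genes out for low values. SPRR2A was positive within set B (0.17). The groups of IVL, SPRR1A, SPRR1B and FLG did not overlap, so no fit with a library left out could turn their sign. Fits without a variance trend, with robust eBayes or with another filter left the estimates of the genes they held unchanged. With array weights 2 of the members passed, IVL and SPRR1B, and 1428 genes in all. One gene passed over all genes with a pseudocount of 1, with no variance trend and with robust eBayes (1 each), none of them a member. Leaving out each library in turn gave 0 to 1 members and 0 to 10 genes past the threshold, the highest of both without control replicate 1, where SPRR1A passed. The median log2 difference of the members was -0.12 without a filter on low values, 0.11 after rescaling to an equal FPKM sum, 0.29 within set A, 1.47 within set B and -0.17 (without control replicate 2) to 1.03 with a library left out. Further members were tested without the filter, after rescaling, and without control replicate 2, knockdown replicate 1 or knockdown replicate 3. SPRR2A was left out without control replicate 1, so these medians cover different members. With the replicate number as a block 0 members and 0 genes passed. The difference was 0.96 for IVL, 0.87 for SPRR1B, 2.30 for SPRR1A and -0.67 for FLG (limma, adjusted p = 0.619 each). Knockdown replicate 3 is alone in its block, so these differences equal those of the fit without that library. Both fits are counted among the 17. Deviations from the group means correlated at -0.06 between the replicates numbered 1 and at -0.58 between those numbered 2, but the deviations of 2 controls mirror each other, so these values do not settle a pairing. No label ties same-numbered libraries together, though those numbered 1 are both in set A and those numbered 2 both in set B. The absolute depth is unknown, so no counting error can be set beside values under 1 FPKM. The cause of these changes was not tested.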

Other observations

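Of the genes listed for the complex and the envelope with a mean under the filter, CASP14, a caspase of filaggrin processing, lay just outside it with a mean of 0.990 FPKM and was chosen here after its values were seen. It stood at 1.02, 2.05 and 1.05 FPKM in knockdown replicates 1, 2 and 3, against 0.675 and 0.160 FPKM in control replicates 1 and 2, with no overlap. HRNR, the gene of hornerin, a filaggrin relative, stood at 0.692, 0.591 and 0.686 FPKM in knockdown replicates 1, 2 and 3, against 0.757 and 1.00 FPKM in control replicates 1 and 2, also with no overlap. In the same list of genes of the filaggrin type TCHHL1 was higher in knockdown with no overlap. The groups overlapped for RPTN, TCHH and CRNN. SPRR4 stood at 0.537, 0.669 and 0.806 FPKM in knockdown replicates 1, 2 and 3, against 0.506 and 0.531 FPKM in control replicates 1 and 2, where knockdown replicate 1 and control replicate 2 nearly met. None of these genes under the filter was tested, and no share without overlap was taken over such genes. GATA3, a transcription factor of the skin that was tested with the envelope regulators, stood at 29.8, 55.8 and 32.5 FPKM in knockdown replicates 1, 2 and 3, against 22.7 and 9.23 FPKM in control replicates 1 and 2. Its log2 difference was 1.35 (SE 0.41; limma, adjusted p = 0.387). Set A alone gave 0.45 and set B 2.53.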
